A study of Mus musculus with 8 samples.

Results

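The mitochondrial ribosomal protein genes were described in mouse heart ventricle at postnatal day 7. The members were chosen by symbol alone, as every gene of the deposited table whose symbol reads Mrpl or Mrps followed by a number, without 4 pseudogene rows. The rule took 76 of 37982 listed genes, 47 Mrpl and 29 Mrps, and used no measured value. Earlier results of these data were known when the members were chosen. All 76 had an expression estimate in every group, and all were tested in both comparisons with wild type; Mrpl23 was not tested between the mutant groups.

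Mitochondria carry their own ribosome, which makes the few proteins encoded in mitochondrial DNA, all of them parts of the respiratory chain and ATP synthase. Its RNAs come from mitochondrial DNA, while its proteins are encoded in the nucleus, made in the cytosol and imported. The small subunit reads the mRNA and the large subunit forms the peptide bonds. Some of its proteins descend from those of bacterial ribosomes, and others have no bacterial counterpart. The heart is rich in mitochondria, and in people inherited defects of Mrpl3 and Mrpl44 are known to cause cardiomyopathy.

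RNA-seq libraries of total RNA from ventricles with the atria trimmed off fell into 3 groups of C57BL/6 mice. The triple mutant (3 samples) and the double mutant (3 samples) were set against wild type (2 samples), and the group names in the labels give no alleles. The series' design text ties the triple mutant to a Nkx2-5 modifier. That the double mutant carries missense changes of Mkl2 and Myh7, and the triple mutant these and one of Nkx2-5, is general knowledge of the study and stands in neither the labels nor the table. Mkl2 encodes a coactivator of serum response factor, Myh7 a myosin heavy chain and Nkx2-5 a cardiac homeobox factor. Neither the labels nor the table state zygosity, the sex of the pups or how many libraries entered each test.

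The authors' deposited table gives 1 FPKM (fragments per kilobase of transcript, scaled to library size) per gene and group, so no spread between samples could be computed and every p and q below is that of the authors' Cuffdiff test. A gene was called where its q, the p adjusted over all tested genes of the 3 comparisons, was under 0.05. All 8 markers of ventricular heart muscle cells (Actc1, Myh6, Myl2, Myl3, Pln, Ryr2, Tnnt2 and Ttn) and all 15 mitochondrial DNA-encoded mRNAs and rRNAs are listed at 0 after failed estimates. The tissue label could therefore not be checked against those markers, and neither the RNA of the mitochondrial ribosome nor the mRNAs it reads could be set beside its proteins. In bulk tissue, fewer cells of a type and less RNA per cell cannot be told apart. Summed FPKM in triple mutant, double mutant and wild type ventricles was 437, 498 and 500 for 6 endothelial markers, 513, 631 and 544 for 6 fibroblast markers, and 29.0, 33.2 and 27.6 for 5 leukocyte markers. The 4 atrial markers, of which Sln is listed at 0, summed to 839, 513 and 927 FPKM in those groups, and 5 red cell markers to 370, 389 and 350 FPKM, although the median log2 fold change of the red cell markers was -0.20 in the triple mutant and -0.04 in the double mutant, each against wild type. Proliferation markers, of which Mki67 had a failed estimate, summed to 130, 83.3 and 111 FPKM in the same order of groups, and 4 Y-linked genes to 54.2, 73.7 and 21.9 FPKM. Of the Y-linked genes, 1 was called higher in the triple mutant and 2 in the double mutant, each against wild type. In each comparison 2 of the atrial markers were tested. Of these, 1 was called lower in the double mutant than in wild type, and 1 higher in the triple than in the double mutant. Among proliferation markers, 1 was called higher in the triple than in the double mutant. No endothelial, fibroblast, red cell or leukocyte marker was called in any comparison. All 76 members lay on autosomes, spread over 17 chromosomes.

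Levels of the members differed widely between genes, on the per-length FPKM scale, and ran from 1.203 to 165 FPKM in triple mutant, 1.18 to 166 FPKM in double mutant and 1.72 to 150 FPKM in wild type ventricles. The median member had 22.3 FPKM in triple mutant, 22.0 FPKM in double mutant and 20.1 FPKM in wild type ventricles. The members' FPKM summed to 2075 in the triple mutant, 2082 in the double mutant and 1824 in wild type. These sums were 0.644%, 0.631% and 0.568% of the FPKM of the 37273 genes with an estimate in all groups. Genes with a failed estimate, among them the ventricular heart muscle markers and the mitochondrial DNA-encoded RNAs above, are not in that total. At 10 FPKM or more stood 64 members in the triple mutant, 61 in the double mutant and 59 in wild type.

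The highest mean level over the groups was that of Mrpl18, a large subunit protein of bacterial descent, with 165 FPKM in the triple mutant, 166 FPKM in the double mutant and 150 FPKM in wild type. Its locus is shared with the chaperonin gene Tcp1, so the division of reads between the pair is uncertain. Mrpl41, a mitochondria-specific large subunit protein in a locus of its own, had 106, 113 and 91.1 FPKM in triple mutant, double mutant and wild type ventricles. Mrps5, described below, came next by mean level over the groups (96.7 FPKM). After it stood Mrpl21, homologue of bacterial L21, with 76.8, 91.2 and 72.1 FPKM in triple mutant, double mutant and wild type. The locus of Mrpl21 is shared with Ighmbp2. At the low end were Mrpl23 with 1.203, 1.18 and 2.42 FPKM and Mrpl22 with 1.87, 1.801 and 1.93 FPKM in triple mutant, double mutant and wild type. Both have processed pseudogenes nearly identical in sequence, and whether these take up part of their reads was not tested.

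**Figure D1:**
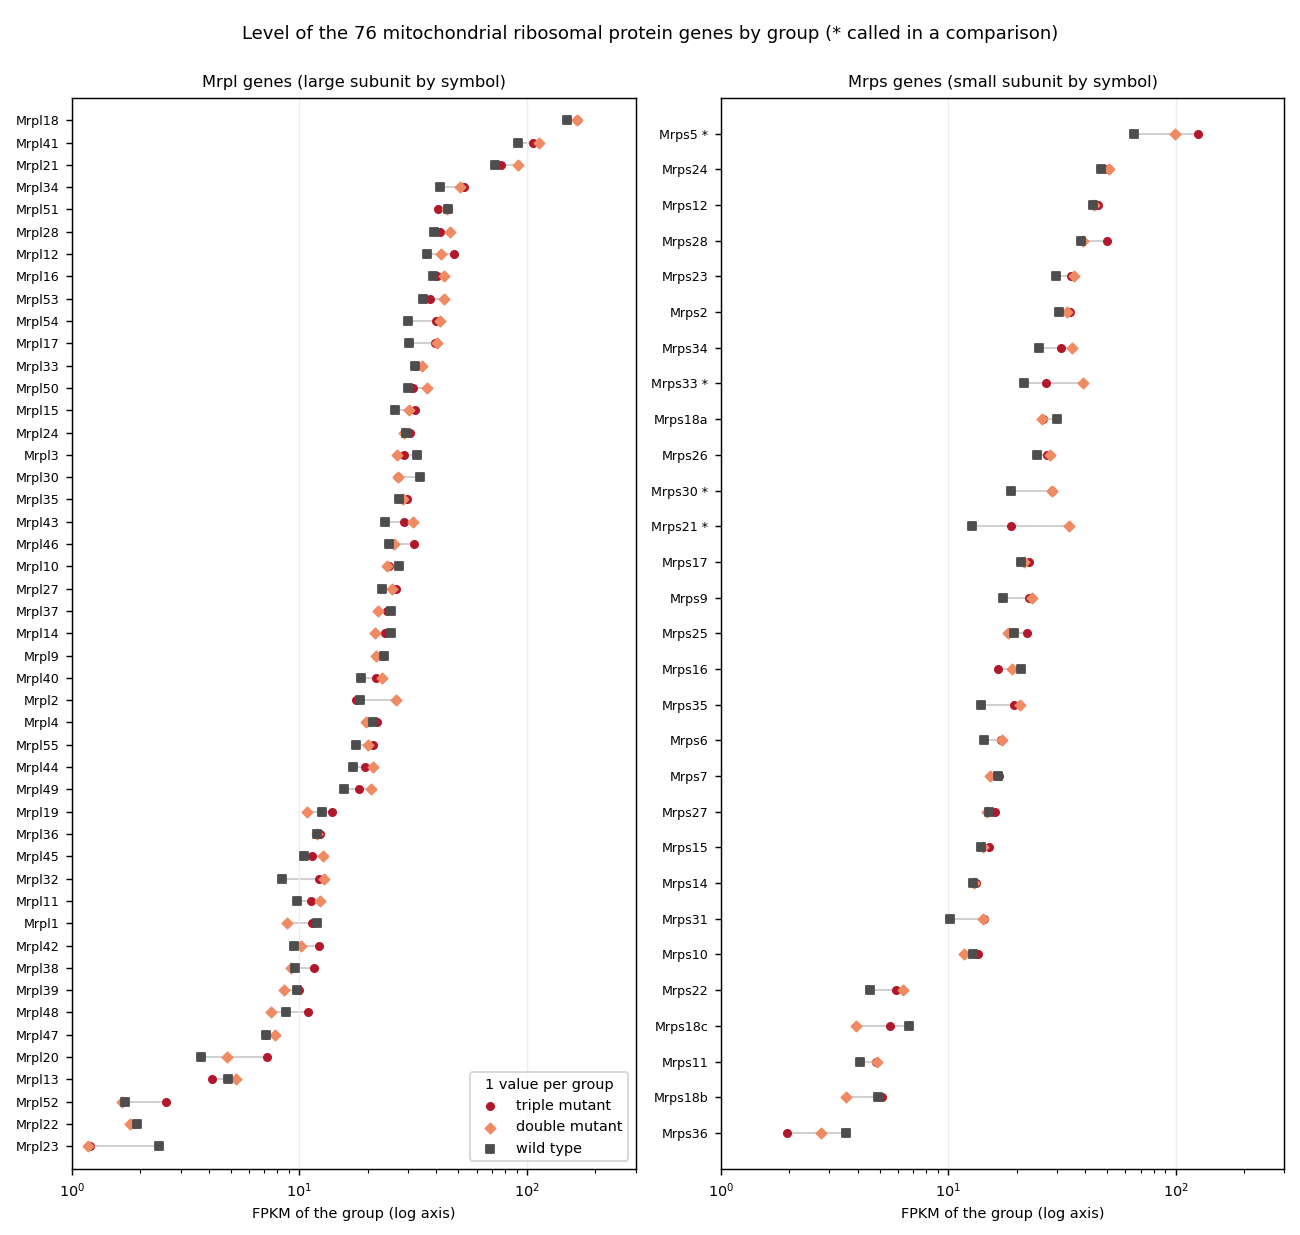
FPKM of each of the 76 members on a log axis, 1 point per group (triple mutant, double mutant, wild type), with Mrpl genes in the left panel and Mrps genes in the right, ordered by mean level. The 3 points of most genes lie close together, and the 4 genes with an asterisk (Mrps5, Mrps21, Mrps30, Mrps33) have wild type as the lowest point.

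In triple mutant ventricles 2 members were higher than in wild type: Mrps5, a homologue of bacterial S5 in the decoding subunit, and Mrps30, which is named for the small subunit but sits in the large one. No member was called lower. Most of the others stood slightly above wild type without passing the test. These 2 of 76 members are 2.63%, beside 1.52% of all 12986 genes tested that were called in either direction and 1.16% that were called higher, a share too close to the background to be read as a result about the members.

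Mrps5 (chromosome 2, 127412958 to 127432565, mm9) had 125 FPKM in triple mutant, 99.3 FPKM in double mutant and 65.2 FPKM in wild type ventricles. The triple mutant was the highest group and the double mutant lay between it and wild type. The triple mutant level was 1.92-fold that of wild type in the authors' deposited table (log2 fold change 0.94, implied standard error at most 0.233, q = 0.0066). The implied standard error is the log2 fold change divided by the normal deviate of the deposited p, and is an upper bound where the p is the lowest in the table, 5e-05.

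Mrps30 (chromosome 13, 119168917 to 119176059, mm9) had 28.5 FPKM in triple mutant, 28.7 FPKM in double mutant and 18.9 FPKM in wild type ventricles. The mutant groups stood together above wild type. Its triple mutant level was 1.51-fold that of wild type in the authors' deposited table (log2 fold change 0.59, implied standard error 0.156, q = 0.015).

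Over all 76 members the median log2 fold change of the triple mutant against wild type was 0.13, with quartiles at 0.03 and 0.32, beside a median of -0.003 over all genes tested. The log2 fold change was above 0 in 59 members (77.6%), against 49.6% of all genes tested, and within 0.5 of 0 in 67 members. Members are not replicates of a condition, so these counts are a description with no test. An unadjusted p under 0.05 was found for 11 members (14.5%), all of them higher in the triple mutant, against 12.1% of all genes tested in either direction.

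Among those 11, Mrps31, a mitochondria-specific small subunit protein, had 14.3, 14.2 and 10.1 FPKM in triple mutant, double mutant and wild type, with q = 0.0857 for the triple mutant against wild type in the authors' deposited table. Mrpl20, homologue of bacterial L20, had 7.23, 4.80 and 3.69 FPKM and the largest log2 fold change of any member in this comparison, 0.97 with an implied standard error of 0.350 (q = 0.14 in the authors' deposited table). Mrpl12, whose protein forms part of the stalk that binds translation factors and is also known to bind the mitochondrial RNA polymerase, had 47.7, 42.1 and 36.2 FPKM in the same order of groups (q = 0.159 in the authors' deposited table). Mrpl32, which is cut to its mature form by the m-AAA protease, had 12.2, 12.8 and 8.36 FPKM, with q = 0.201 for the triple mutant against wild type in the authors' deposited table. The remaining 5 without a call, Mrps9, Mrps28, Mrpl34, Mrpl46 and Mrpl54, had log2 fold changes of 0.35 to 0.42 in the authors' deposited table. At the other end, the lowest log2 fold changes were those of Mrpl23 (-1.01, q = 0.507), Mrps36 (-0.86, q = 0.454) and Mrps16 (-0.33, q = 0.648) in the authors' deposited table, and none passed the test.

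The deposited test statistic implies a wider spread than the deposited p does (medians over tested genes of 0.405 and 0.222 on the log2 scale). Against wild type the statistic gave 0.347 for Mrps5 and 0.263 for Mrps30 in the triple mutant. In the double mutant it gave 0.483 for Mrps21, 0.425 for Mrps33 and 0.264 for Mrps30. The implied standard errors, and the bounds on them, rest on the p alone. Adjusted p-values made from that statistic as a normal deviate left 0 members called in any comparison, and 18 calls over all genes and comparisons in place of 704.

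**Figure D2:**
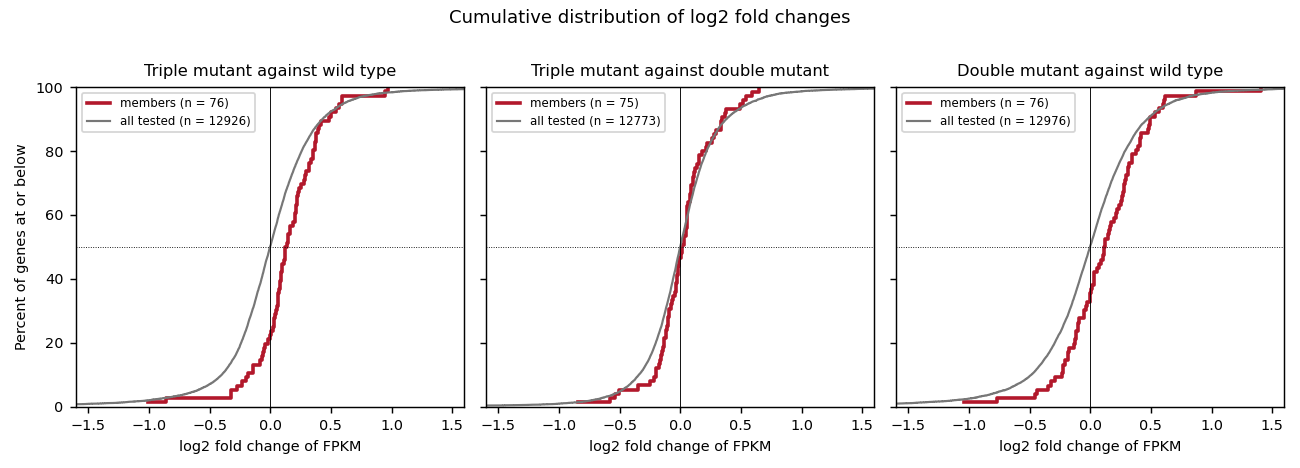
Cumulative percent of genes at or below each log2 fold change of FPKM, for the members and for all tested genes with an estimate above 0 in both groups, in 3 panels (triple mutant against wild type, triple mutant against double mutant, double mutant against wild type). The members' line lies right of the line of all tested genes over its middle part in both comparisons with wild type, where their medians are 0.13 and 0.12, and close to it in the comparison of the mutant groups, where their median is 0.01.

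In double mutant ventricles 3 members were higher than in wild type and none was called lower: Mrps21, Mrps33 and Mrps30. They are 3.95% of 76 members, beside 2.65% of 13034 tested genes called in either direction and 1.89% called higher, again a share near the background. The comparison uses the same wild type samples as the one above, so the values of the pair of comparisons are not independent of each other.

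Mrps21 (chromosome 3, 95666557 to 95675442, mm9), the homologue of bacterial S21, had 18.8 FPKM in triple mutant, 33.8 FPKM in double mutant and 12.7 FPKM in wild type ventricles. The double mutant stood apart above both other groups. Its level was 2.66-fold that of wild type in the authors' deposited table (log2 fold change 1.41, implied standard error at most 0.348, q = 0.0066), the largest change of any member in any comparison. With a transcript of 488 bases it is the shortest member measured, and the processed pseudogene Gm6181 matches 54.1% of that transcript at 97.3% identity. Gm6181 itself is listed at 0, 0.518 and 0 FPKM in triple mutant, double mutant and wild type. Whether reads were divided between Gm6181 and Mrps21 was not tested.

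Mrps33 (chromosome 6, 39751803 to 39760987, mm9), a mitochondria-specific small subunit protein, had 27.0 FPKM in triple mutant, 39.2 FPKM in double mutant and 21.4 FPKM in wild type ventricles. As for Mrps21, the double mutant was the highest group. Its level was 1.83-fold that of wild type in the authors' deposited table (log2 fold change 0.87, implied standard error 0.251, q = 0.0342). Mrps30 was 1.52-fold wild type in the double mutant in the authors' deposited table (log2 fold change 0.60, implied standard error at most 0.148, q = 0.0066). Mrps5, called in the triple mutant, was 1.52-fold wild type in the double mutant and missed the threshold there (q = 0.0868 in the authors' deposited table).

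The median log2 fold change of the double mutant against wild type was 0.12 over the 76 members, with quartiles at -0.10 and 0.31, beside -0.003 over all genes tested. It was 0.07 without the members in shared loci, and also 0.07 once the median of all genes of like transcript length was subtracted. It was above 0 in 49 members (64.5%), against 49.5% of all genes tested. An unadjusted p under 0.05 was found for 14 members (18.4%), 13 of them higher and 1 lower, against 16.3% of all genes tested. The lower one was Mrpl1, a homologue of bacterial L1, with 11.4, 8.85 and 12.0 FPKM in triple mutant, double mutant and wild type (log2 fold change -0.44, q = 0.191 in the authors' deposited table). Of the higher ones without a call, Mrps31 (q = 0.0992), Mrpl32 (q = 0.121), Mrps9 (q = 0.15) and Mrpl54 (q = 0.186) had log2 fold changes of 0.42 to 0.61 in the authors' deposited table, and Mrps22, Mrpl21, Mrpl41, Mrpl49 and Mrpl50 had values of 0.28 to 0.49.

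Between the triple and the double mutant, the comparison that the design text ties to the Nkx2-5 modifier, 0 of the 75 members tested were called, beside 1.25% of 12786 genes tested. An unadjusted p under 0.05 was found for 3 members (4%), 1 higher and 2 lower, against 8.45% of all genes tested. The lowest p was that of Mrps21, whose level in the triple mutant was 18.8 FPKM, against 33.8 FPKM in the double mutant (log2 fold change -0.85, implied standard error 0.265, p = 0.0014, q = 0.0641 in the authors' deposited table). Mrps33 had 27.0 FPKM in the triple mutant and 39.2 FPKM in the double mutant (log2 fold change -0.54, q = 0.283 in the authors' deposited table). Mrpl1 went the other way, with 11.4 FPKM in the triple mutant and 8.85 FPKM in the double mutant (log2 fold change 0.37, q = 0.315 in the authors' deposited table). Mrps5 had a log2 fold change of 0.34 (q = 0.439) and Mrps30 of -0.01 (q = 0.99) in the authors' deposited table. The highest log2 fold changes were those of Mrpl52 (0.65, q = 0.889), Mrpl20 (0.59, q = 0.444) and Mrpl48 (0.54, q = 0.871) in the authors' deposited table.

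The median over the 75 members was 0.01, with quartiles at -0.11 and 0.13 (0.05 without the members in shared loci, and 0.05 with FPKM scaled to an equal sum per group), beside -0.001 over all genes tested, and 40 members (53.3%) stood above 0, against 49.8% of all genes tested. Members with little change and members with a wide error are both among those not called. Mrpl2, in a locus shared with 19 other genes, had 17.8, 26.6 and 18.4 FPKM in triple mutant, double mutant and wild type, and its log2 fold change of -0.58 between the mutant groups carries an implied standard error of 1.47 (q = 0.955 in the authors' deposited table).

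**Figure D3:**
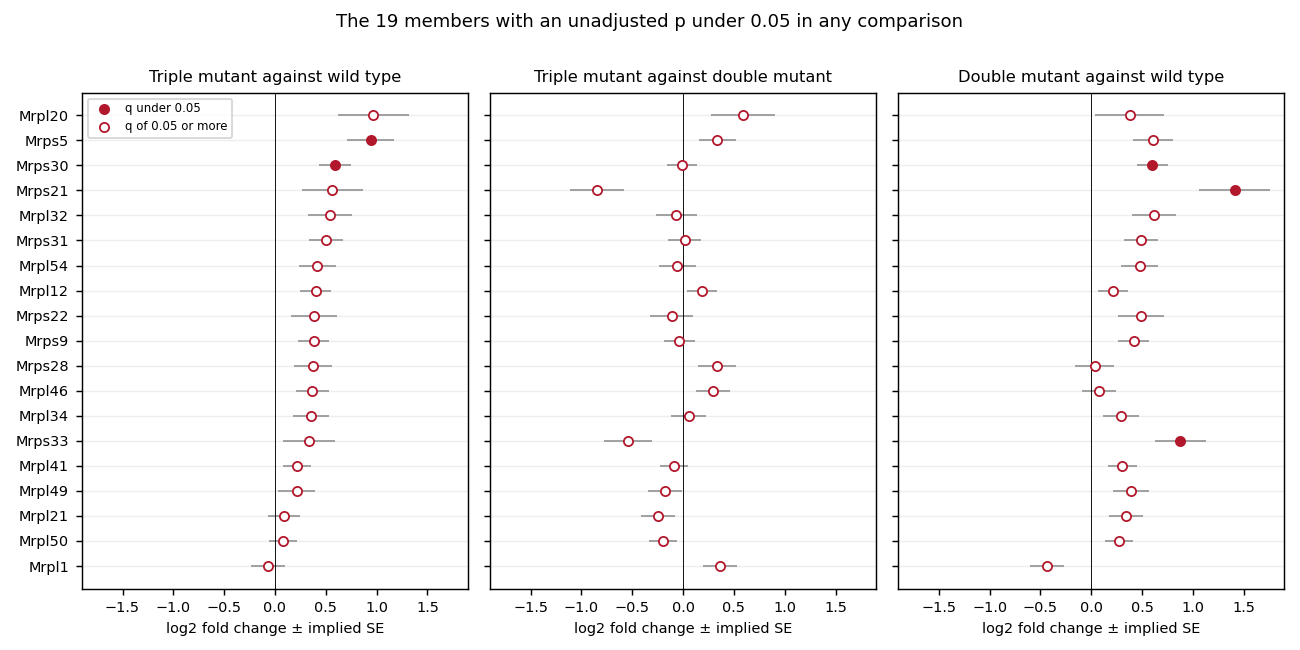
Log2 fold change with its implied standard error (bar) for the 19 members with an unadjusted p under 0.05 in any comparison, in 3 panels (triple mutant against wild type, triple mutant against double mutant, double mutant against wild type), with filled points where q was under 0.05. Mrps5 and Mrps30 are filled in the first panel, no gene in the second, and Mrps21, Mrps33 and Mrps30 in the third.

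The promoters of the 4 called genes are shown because the members are nuclear genes with known activators: NRF1 and the ETS factor GABP drive many genes for mitochondrial proteins, and YY1 is a further regulator of such genes. Each line below runs from 120 bases before to 30 bases after the RefSeq transcription start in GRCm38.p6, on the gene's own strand, with matches to a searched motif in capitals. The windows are chr3:95871485-95871634 (minus strand) for Mrps21, chr13:118387223-118387372 (minus strand) for Mrps30, chr6:39810907-39811056 (minus strand) for Mrps33 and chr2:127587306-127587455 (plus strand) for Mrps5.
Mrps21 promoter: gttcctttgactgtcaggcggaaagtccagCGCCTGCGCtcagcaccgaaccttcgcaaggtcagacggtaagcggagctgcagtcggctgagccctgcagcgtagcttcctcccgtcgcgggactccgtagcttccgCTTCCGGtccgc
Mrps30 promoter: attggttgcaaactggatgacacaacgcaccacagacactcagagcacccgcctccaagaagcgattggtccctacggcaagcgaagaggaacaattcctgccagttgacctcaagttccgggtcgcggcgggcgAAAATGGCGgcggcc
Mrps33 promoter: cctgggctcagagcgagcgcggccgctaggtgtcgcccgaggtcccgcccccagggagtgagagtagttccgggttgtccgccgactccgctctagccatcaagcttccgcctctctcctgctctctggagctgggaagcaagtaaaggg
Mrps5 promoter: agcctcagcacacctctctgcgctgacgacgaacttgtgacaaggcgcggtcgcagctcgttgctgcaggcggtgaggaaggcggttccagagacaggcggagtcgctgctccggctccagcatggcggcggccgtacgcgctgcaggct
Positions are counted from the first transcribed base, which is 1. Mrps21 held an NRF1 match that begins at position -90 and an ETS match at 19, and Mrps30 a YY1 match at 16. The other matches of the 4 genes fell outside the printed windows, an ETS match at 39 in Mrps33 and an SP1 match at -243 in Mrps5. The motifs were NRF1 (GCGCANGCG), ETS (CCGGAAG), YY1 (AANATGGCG), SP1 (GGGGCGGGG) and NKX2-5 (TNAAGTG), where N is any base, searched on both strands from 250 bases before to 50 after the start. No motif holds another, although the end of an ETS match can share bases with the beginning of a YY1 match.

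Over the 67 members with a promoter entry, 24 (35.8%) held the ETS motif, against 9.93% of all 27025 genes with an entry. The NRF1 motif was in 15 members (22.4%), against 7.03% of all genes, and the YY1 motif in 10 (14.9%), against 2.76%. The NRF1 and YY1 motifs were shortened after their matches had been seen, so their shares are not independent of that choice. The SP1 motif was in 13 (19.4%), against 12.9%, and the NKX2-5 motif in 4 (5.97%), against 13.1%. A match is a description of letters and not a site that any factor was seen to bind.

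By subunit, the 29 Mrps genes had a median log2 fold change of 0.16 in the triple mutant against wild type, 0.01 in the triple against the double mutant and 0.11 in the double mutant against wild type. The 47 Mrpl genes (46 tested between the mutant groups) had medians of 0.12, 0.04 and 0.12 in the same comparisons. All 4 called genes carry Mrps symbols, although Mrps30 belongs to the large subunit by structure. By descent, the 29 mitochondria-specific members had a median of 0.22 in the triple mutant against wild type, with 26 above 0, and of 0.28 in the double mutant against wild type, with 19 above 0. The 46 core members of bacterial descent had medians of 0.09, with 33 above 0, and 0.11, with 30 above 0. Between the mutant groups the medians were -0.05 for the mitochondria-specific and 0.05 for the core members. The difference between these classes was not tested.

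The 3 Mrps18 genes are paralogues whose proteins occupy different places in the ribosome. Mrps18a, whose product lies in the large subunit, had 26.1, 25.9 and 29.96 FPKM in triple mutant, double mutant and wild type. Mrps18b had 5.11, 3.57 and 4.89 FPKM and Mrps18c 5.52, 3.92 and 6.69 FPKM in the same order, and none of the 3 was called in any comparison. Mrps36, now known as a component of the alpha-ketoglutarate dehydrogenase complex and not of the ribosome, had 1.95, 2.77 and 3.54 FPKM in triple mutant, double mutant and wild type. Mrpl3 and Mrpl44, chosen for their link to cardiomyopathy, were called in no comparison. Mrpl3 had 28.9, 26.8 and 32.8 FPKM and Mrpl44 19.3, 21.02 and 17.2 FPKM in triple mutant, double mutant and wild type.

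**Figure D4:**
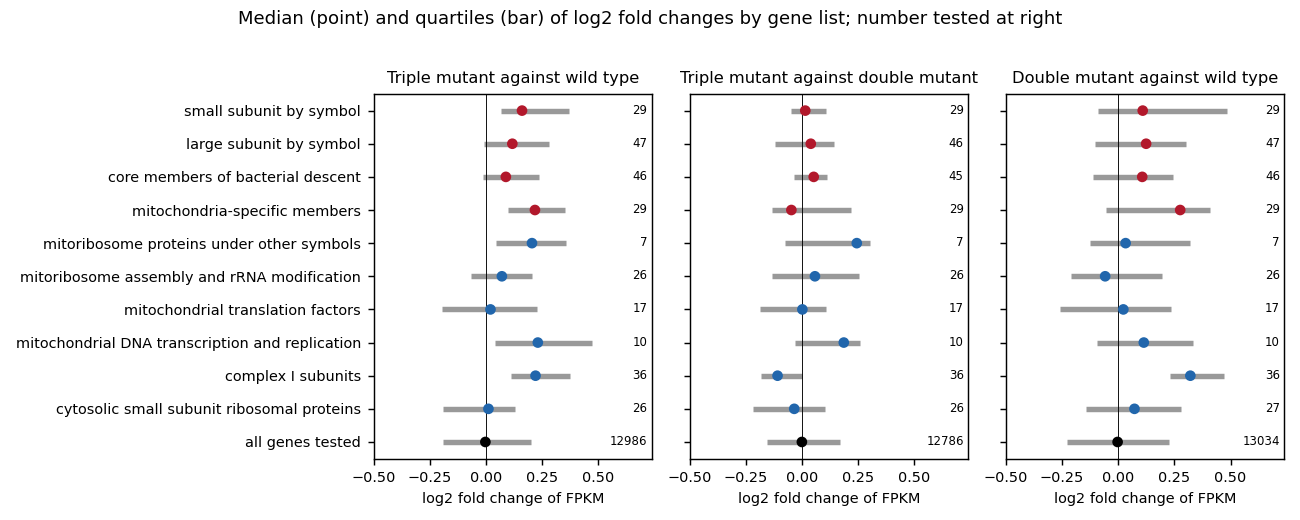
Median (point) and quartiles (bar) of the log2 fold change of FPKM over the tested genes of each list, in 3 panels (triple mutant against wild type, triple mutant against double mutant, double mutant against wild type), with the number tested at the right. Lists of members are red, other lists blue and all tested genes black; complex I is the list furthest right in the double mutant against wild type, with a median of 0.32.

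Genes that build or serve the mitochondrial ribosome under other symbols were mostly not called. Of all genes tested, 1.52% were called in the triple mutant against wild type, 1.25% between the mutant groups and 2.65% in the double mutant against wild type. Beside these shares the counts below are not read as a result about the lists. Of 7 further ribosomal proteins none was called, and the nearest was Chchd1, a mitochondria-specific small subunit protein, with 32.8, 27.7 and 21.1 FPKM in triple mutant, double mutant and wild type (q = 0.0561 for the triple mutant against wild type in the authors' deposited table). Of 26 tested assembly and rRNA modification factors 1 was called, Rbfa, which helps to mature the small subunit. Rbfa had 41.4, 47.8 and 34.0 FPKM in triple mutant, double mutant and wild type, 1.41-fold wild type in the double mutant in the authors' deposited table (q = 0.0244). None of 17 mitochondrial translation factors and none of 10 tested genes for transcription and replication of mitochondrial DNA was called in any comparison. Median log2 fold changes in the triple mutant against wild type were 0.20 for the further ribosomal proteins, 0.07 for the assembly factors, 0.02 for the translation factors and 0.23 for the DNA genes. In the double mutant against wild type they were 0.03, -0.06, 0.02 and 0.11 in that order of lists.

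The 36 subunits of complex I, a respiratory complex that takes some of its subunits from the mitochondrial ribosome, had a median log2 fold change of 0.22 in the triple mutant against wild type, -0.11 in the triple against the double mutant and 0.32 in the double mutant against wild type. Called higher were 2 of them in the triple mutant and 6 in the double mutant, each against wild type, beside 1.16% and 1.89% of all genes tested. Between the mutant groups 1 was called, Ndufc2, lower in the triple mutant (q = 0.0321 in the authors' deposited table). The small subunit proteins of the cytosolic ribosome had medians of 0.01, -0.04 and 0.07 in the 3 comparisons, over 26, 26 and 27 tested genes. Of these Rps2 was called higher in the triple mutant than in wild type, Rps26 lower in the triple than in the double mutant, and Rps24 higher in the double mutant than in wild type. No test of a difference between these lists and the members was made.

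Transcript length moved with the fold changes of all genes. In the triple mutant against wild type genes were divided into 8 bins of length, and the median log2 fold change of all tested genes was 0.09 in bin 1, the shortest, and -0.07 in bin 8. In the double mutant against wild type those bins had medians of 0.08 and -0.10. By the longest transcript of each gene the members are short, with a median of 1764 bases against 3236 for all tested genes. In the shortest bin fell 27 of them. After the median of all genes in the same bin was subtracted, the members' median was 0.12 in the triple mutant against wild type, 0.03 in the triple against the double mutant and 0.07 in the double mutant against wild type. The part that RNA quality, the sex of the pups or the mix of cells had in the members' values was not tested.

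**Figure D5:**
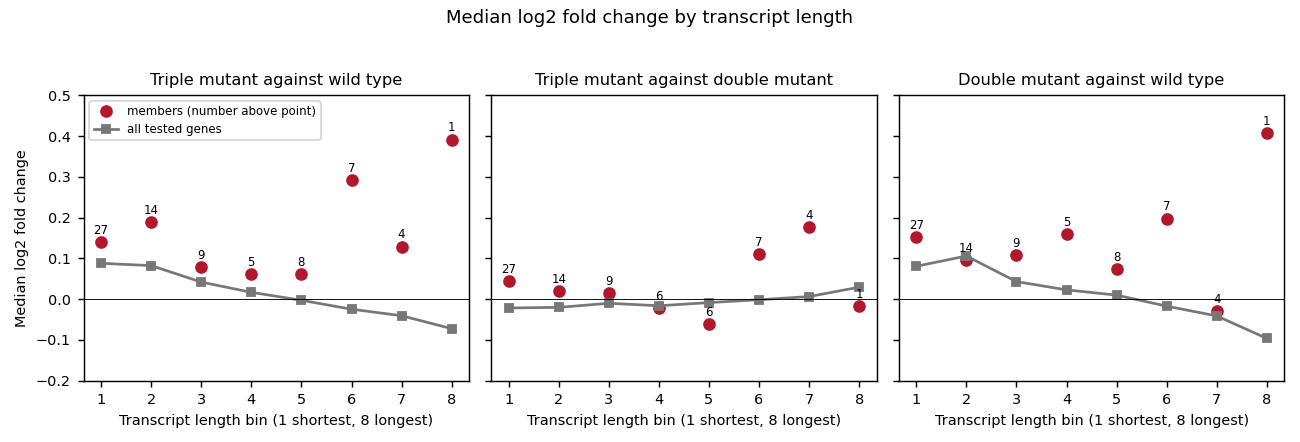
Median log2 fold change against transcript length bin (1 shortest, 8 longest) for the members (points, with their number above) and all tested genes (squares joined by a line), in 3 panels (triple mutant against wild type, triple mutant against double mutant, double mutant against wild type). In both comparisons with wild type the line is above 0 in the shortest bin and below 0 in the longest (highest in bin 2 in the double mutant), and the 27 members of the shortest bin lie above it in both, at 0.14 in the triple mutant and 0.15 in the double mutant.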

How the data were processed

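RNA was extracted from mouse ventricles and made into stranded total RNA libraries, per the labels' protocols. The submitters' processing notes name the mm9 build and the tools STAR 2.5.2, CASAVA 1.8, Cuffdiff 2.2.1 and Cufflinks 2.2.1; which annotation and library scaling were used is not given. The file deposited by the authors holds FPKM values, 1 for each group of a gene. For each comparison the authors also deposited a log2 fold change, a signed test score (the Cuffdiff statistic), a p-value and a q-value. FPKM keeps no total depth, so the depth per sample is unknown.

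Recomputed from FPKM without a pseudocount, log2 fold changes differed from those deposited by at most 4.7215e-05. Pooling the 3 comparisons and adjusting their tested p-values by Benjamini-Hochberg gave the deposited q-values to within 5.26442e-07. The authors marked genes as significant up to q = 0.1. Rows marked as having too many fragments were treated as failed estimates. Deposited loci start from 0 and are printed as start plus 1. Shared loci are those that the file gives to more than 1 gene, which held for 32 members. Transcript lengths, taken from GENCODE M21 by Ensembl ID, were found for 75 members and 32900 of 37982 genes. The length of a gene was that of its longest transcript, coding or not, which need not be the one expressed. Near copies were sought with BLAST 2.17.0 (at least 95% identity over 50% of the member's longest protein-coding transcript). Promoters were those of RefSeq, and the NRF1 and YY1 motifs were shortened after their matches had been seen. The computations, in Python 3.11.15 with pandas 2.3.3 and scipy 1.17.1, were tested on simulated data.

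The table holds no values of single samples, so no test of differences was added. Groups came from the labels. The members and gene lists were chosen with earlier results of these data known. Named members had p or q under 0.05, were among the 3 highest or lowest log2 fold changes of a comparison or the 4 highest or 2 lowest mean levels, or belong to 6 genes with a known role (Mrps36, Mrps30, Mrpl12 and the Mrps18 genes); Mrpl3 and Mrpl44 were named outside that rule. Alternatives were another q threshold, adjustment within a comparison, FPKM minimums, pseudocounts, scalings, length bins and leaving out shared loci.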

Additional observations from a re-analysis of the deposited data

How the results depend on the processing

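The number of members called changed with the threshold and the source of the p-value. At the authors' mark of q = 0.1 it was 3 in the triple mutant against wild type, 1 in the triple against the double mutant (Mrps21) and 5 in the double mutant against wild type. No share of all tested genes at that mark is given, so these counts are not read as a result about the members. Adjusted p-values from the deposited statistic as a normal deviate, an alternative chosen after seeing the data, left 0 members called in each comparison. The cause of that drop was not tested. Adjustment within a comparison, FPKM minimums of 5 and 10 and leaving out shared loci gave 2, 0 and 3 calls in those comparisons. The median log2 fold change of the members lay between 0.12 and 0.14 in the triple mutant against wild type, 0.01 and 0.05 in the triple against the double mutant, and 0.07 and 0.12 in the double mutant against wild type, over 10 alternatives each. The lowest value of the last came from transcript length bins and from leaving out shared loci, and the cause was not tested. The alternatives included leaving out the 4 called members, chosen after seeing the data. No paired analysis was possible because the deposited table holds 1 value per group, and for the same reason leaving out each replicate was not run. The 0 calls between the mutant groups, in the authors' Cuffdiff test, stand beside 3 members at an unadjusted p under 0.05, and the depth behind them is unknown.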

Other observations

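The 4 pseudogene rows that the rule left out had low levels. Mrpl23-ps1 had 1.53, 2.40 and 0.837 FPKM in triple mutant, double mutant and wild type, while Mrpl23, whose transcript it matches over 68.9% of its length at 100% identity, had 1.203, 1.18 and 2.42 FPKM. Mrps36-ps1 had 1.43, 1.83 and 0.413 FPKM in the same order, beside 1.95, 2.77 and 3.54 FPKM for Mrps36. In both pairs wild type was the lowest group for the pseudogene row and the highest for the gene. Mrps36-ps2 had 0.333, 0.488 and 0 FPKM and Mrpl48-ps 1.23, 1.83 and 0.976 FPKM. Wild type was the lowest group in all 4 pseudogene rows. Mrpl48 itself had 10.9, 7.47 and 8.74 FPKM in triple mutant, double mutant and wild type, so wild type was not its highest group. The search for near copies found none for Mrps36 or Mrpl48. Whether reads were divided between genes and pseudogene rows was not tested.

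Mrpl46 and Mrps11 are listed in 1 shared locus on chromosome 7, with 31.8, 25.9 and 24.6 FPKM for Mrpl46 and 4.79, 4.87 and 4.10 FPKM for Mrps11 in triple mutant, double mutant and wild type.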
